A study of Mus musculus with 5 samples.

Results

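Chemokines and their receptors were followed in whole uteri of mice mated with vasectomized males that were young or reproductively old. The members were every row of the gene table whose symbol was Ccl, Cxcl, Xcl, Cx3cl, Ccr, Cxcr, Xcr, Cx3cr or Ackr followed directly by a number. That rule took 62 of 28666 genes, of which 40 were ligands and 22 were receptors, 4 of them atypical. ICR females of 6 to 8 weeks, an outbred strain, were caged with sterile C57BL/6 males of 12 to 18 months (the aged-SP group, 2 libraries, replicates 1 and 4) or of 12 to 14 weeks (the young-SP group, 3 libraries, replicates 1, 2 and 4). SP stands for seminal plasma, the fluid that a vasectomized male still passes on without sperm. Every female had therefore received seminal plasma, no uterus held an embryo, and no unmated female was among the libraries. Uteri were taken 3.5 days after caging per the labels, and the RNA was that of the whole organ, so epithelium, stroma, muscle, vessels and leukocytes were measured together. The comparison asked how the uterus before implantation differed with the age of the male.

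Chemokines are small secreted proteins that guide leukocytes along concentration gradients by binding receptors that signal through G proteins. They are grouped by the spacing of their first cysteines into CC, CXC, XC and CX3C families, and most bind several receptors. Atypical receptors bind chemokines without G protein signalling and remove or transport them. In the uterus chemokines from epithelium, stroma and vessels are known to position macrophages, dendritic cells, neutrophils and natural killer cells around mating and implantation, and seminal fluid is known to bring on a short wave of neutrophil-attracting chemokines.

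Each library held between 15071914 and 16728601 counts assigned to genes, and the members together took between 13726 and 29853 of these per library. The aged-SP replicate 1 held the most, and the young-SP replicates 2 and 4 the fewest. CPM values below are counts scaled by library size after TMM normalization. FPKM values are the authors' own, with counts scaled by the total count and gene length and without TMM. The aged-SP replicate 1 and the young-SP replicate 1, with the most and the next most member counts, stood apart from the remaining libraries in several members. The summed CPM of 8 neutrophil markers was 105 and 31.3 in the aged-SP libraries against 220, 53.4 and 36.3 in the young-SP libraries. It was highest in the young-SP replicate 1, where it was mostly S100a9, Csf3r and S100a8, at 102, 78.7 and 26.9 CPM. Mpo and Retnlg, at 1.69 and 8.63 CPM, were lowest in that library, and Ly6g and Mmp8 were highest in aged-SP libraries. The summed CPM of 5 markers of uterine glands was 4075 and 2928 against 499, 30.5 and 33.6, where the young-SP replicate 1 again lay apart from its group. That sum was mostly the proteases Prss28 and Prss29, while Foxa2, a transcription factor of the glands, was level at 10.6 and 12 CPM against 8.51, 14.1 and 11.6 CPM. Endometrial (Hoxa10, 437 to 519 CPM) and smooth muscle (Acta2, 2475 to 4268 CPM) genes were high in all 5 libraries, and markers of vagina and cervix summed to at most 4.84 CPM. Oviduct markers summed to 108 and 149 CPM against 93.6, 50.2 and 252 CPM, and ovary markers to 21.5 to 70.9 CPM. No label or file gave a batch. Whether each library was 1 female or a pool was not given in the sources used here, so the p-values measure the spread between these libraries.

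The uterus expressed many members, and ligands reached higher levels than receptors. On the FPKM scale, which allows genes to be compared, 29 members were above 1 FPKM in all 5 libraries, 19 ligands and 10 receptors, and 14 members were under 1 FPKM in all 5. The highest mean level over the 5 libraries was 51.7 FPKM for Cxcl17, a mucosal chemokine of epithelia. Cxcl12, the stromal ligand of Cxcr4, followed at 46.4 FPKM, then Ccl8, which draws monocytes, at 45.4 FPKM, and Cxcl14, made by epithelium and stroma, at 44.7 FPKM. The libraries of each of these 4 members spread more widely than their means differed. Ccl6, a ligand of Ccr1, had a mean of 33.7 FPKM. Cxcl5, a neutrophil attractant, came sixth at 28.9 FPKM, but that mean rested on 136 FPKM in the aged-SP replicate 1, with no other library above 6.90 FPKM. Among receptors the monocyte receptor Ccr2 was highest at 12.9 FPKM, ahead of the scavenger Ackr3 at 12 FPKM, Cxcr4 at 6.69 FPKM and the macrophage receptor Cx3cr1 at 5.72 FPKM.

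**Figure D1:**
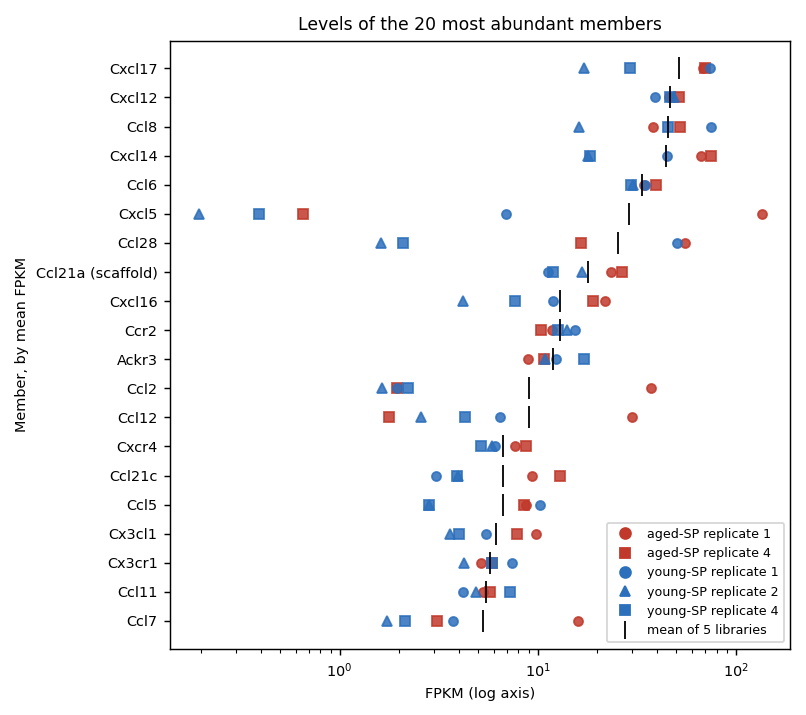
FPKM (log axis) of the 20 members with the highest mean over the 5 libraries, each point being 1 library coloured by group. Cxcl17, Cxcl12, Ccl8 and Cxcl14 had means of 44.7 to 51.7 FPKM. The points of Cxcl5, Ccl28, Ccl2 and Ccl12 spread over more than a factor of 10 between libraries.

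For the comparison of the groups, 50 members (33 ligands and 17 receptors) passed the filter on low counts. No member met an adjusted p under 0.05 together with a log2 fold change above 1 in size in the quasi-likelihood F-test of edgeR, adjusted by Benjamini-Hochberg over 17013 genes. That rule was met by 25 genes, or 0.147% of those tested. The adjusted p of the members ran from 0.0734 to 0.998. The limma-voom test likewise called 0 members. At an unadjusted p under 0.05 in edgeR there were 15 of the 50 members (30.0%), against 19.0% of all genes tested. Of these, 11 members (22.0%) had higher counts in the aged-SP group, where 9.62% of all genes did, and 4 (8.00%) had lower counts, against 9.36%. DESeq2's Wald test, run as an alternative, called 8 of the 51 members to which it gave an adjusted p (15.7%), against 3.60% of all genes. Those 8 were Ccl21c, Cx3cl1, Cxcl1, Cxcl11, Cxcl14 and Cxcl16, with higher values in the aged-SP group, and Ackr4 and Cxcl15, with lower values. With edgeR, 1 member, Ccl21c, was called when no filter on low counts was applied (0.708% of all genes) and 1 member, Ccl2, when the aged-SP replicate 4 was left out (0.278%).

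A log2 fold change above 1 in size, without regard to p, was found for 20 of the 50 members (40.0%) against 9.20% of all genes. Ligands lay mostly above 0, with 30 of 33 ligands having a positive log2 fold change of aged-SP over young-SP and a median of 0.87. Among receptors 5 of 17 were above 0 and the median was −0.32. Over all genes tested the share above 0 was 50.9% and the median log2 fold change was 0.01. Many of these differences came from 1 library. The groups did not overlap in CPM for 14 of the 50 members, 7 in each direction, which was below the 38.8% of all genes tested (19.5% with the aged-SP libraries above and 19.3% with them below). The 7 with both aged-SP libraries above all young-SP libraries were Ccl9, Ccl21a on an unplaced scaffold, Ccl21c, Cx3cl1, Cxcl14, Cxcl16 and Cxcr4. The 7 with both aged-SP libraries below were Ackr4, Ccl27a, Ccr2, Cxcl13, Cxcl15, Cxcr3 and Cxcr6.

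**Figure D2:**
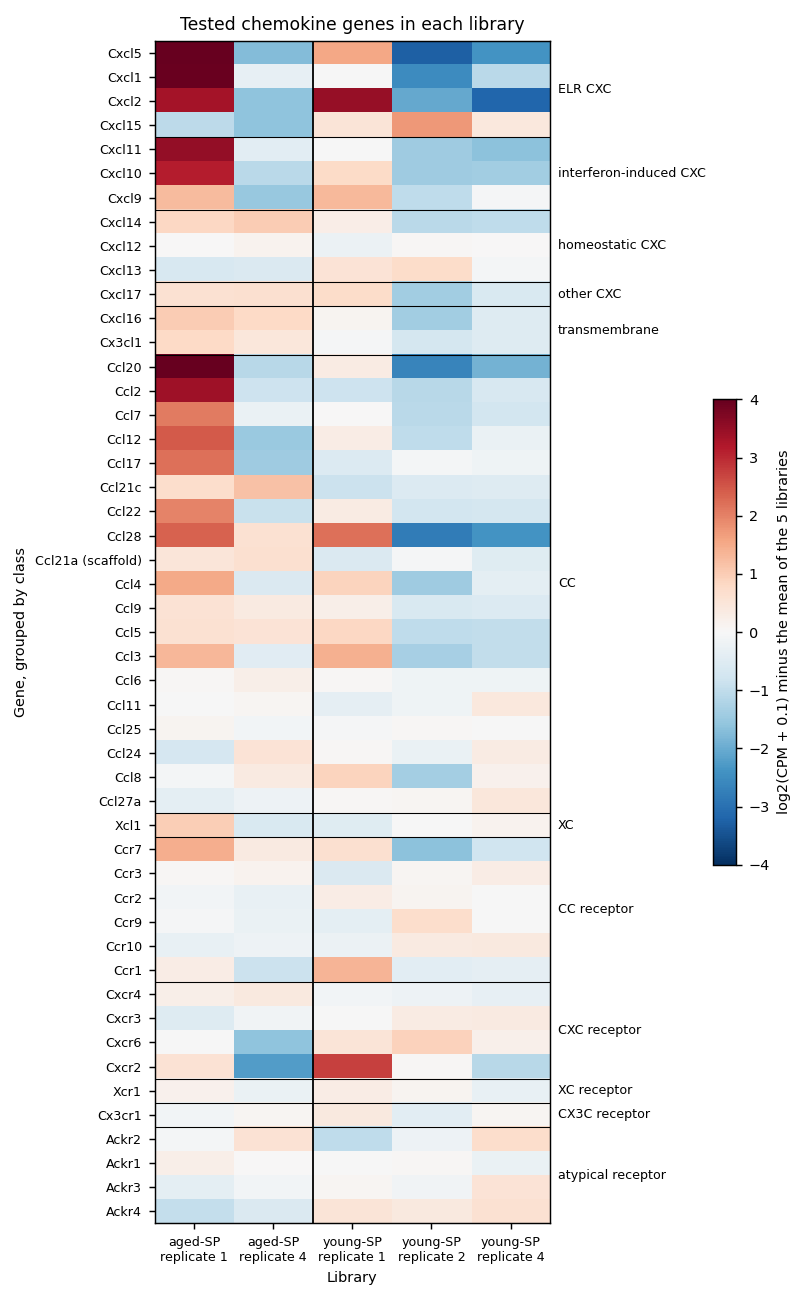
Heat map of log2(CPM + 0.1) of 49 of the 50 tested members in each of the 5 libraries, minus the member's mean over the libraries, with the colour limited to 4 in either direction. The aged-SP replicate 1 column stands out for Ccl2, Ccl20, Cxcl1, Cxcl5 and Cxcl11, and the young-SP replicate 1 column for Cxcr2 at 33.2 CPM.

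In the lymphatic route the ligand Ccl21c lay above, and the scavenger Ackr4 below, every young-SP value in both aged-SP libraries, without passing the edgeR threshold. Ccl21 is made by lymphatic endothelium and lymph node stroma and draws dendritic cells and T cells that carry Ccr7, while Ackr4 takes up Ccl21, Ccl19 and Ccl25 and removes them. Ccl21c measured 8.16 and 11.3 CPM in the aged-SP libraries and 2.69, 3.37 and 3.40 CPM in the young-SP libraries. Both aged-SP values lay above all young-SP values, with means of 9.74 ± 2.23 (SD, n = 2) and 3.15 ± 0.403 CPM (SD, n = 3). Its log2 fold change was 1.63 with a standard error of 0.24 and an adjusted p of 0.0734 by edgeR. Without the young-SP replicate 1 the log2 fold change was 1.51 and the edgeR adjusted p 0.0448. Without the young-SP replicates 2 and 4 the log2 fold change was 1.67 and 1.68, with edgeR adjusted p of 0.214 and 0.231.

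Mice carry several nearly identical Ccl21 genes, so reads can be split among their rows. The Ccl21a row on an unplaced scaffold measured 9.55 and 10.7 CPM against 4.57, 6.56 and 4.87 CPM, again without overlap, with a log2 fold change of 0.92 (standard error 0.23) and an edgeR adjusted p of 0.132. The Ccl21a row on chromosome 4 (42772860 to 42773993, GRCm38) had at most 2 counts in any library and was not tested. Of its transcript, 71.6% of the stretches of 50 bases also occurred in other genes. Such stretches were not computed for Ccl21c or for the Ccl21a row on a scaffold. The sum of the 3 Ccl21 rows does not depend on how reads were split among these rows, but it leaves out other copies with shared stretches, to which reads may also have been assigned. That sum was 17.8 and 22.0 CPM against 7.38, 9.93 and 8.28 CPM, means of 19.9 ± 2.99 (SD, n = 2) and 8.53 ± 1.29 CPM (SD, n = 3), a ratio of 2.33.

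Ackr4, on chromosome 9 (104084157 to 104126933, minus strand), ran the other way. It measured 3.45 and 4.54 CPM in the aged-SP libraries against 9.82, 8.87 and 10.3 CPM in the young-SP libraries. The groups did not overlap, and the means were 3.99 ± 0.774 (SD, n = 2) and 9.66 ± 0.721 CPM (SD, n = 3). The log2 fold change was −1.27 with a standard error of 0.21, and the adjusted p was 0.0799 by edgeR and 2.28e-04 by DESeq2. It stayed between −1.09 and −1.28 without the aged-SP replicate 1 or without the young-SP replicate 1. An exon of Ackr4 overlaps Acad11 on the opposite strand, where 3.06% of the stretches of 50 bases in its transcripts recur, and the library kit did not keep strand, so the reads there cannot be told apart. Acad11 measured a mean of 19.1 CPM in the aged-SP group and 17.7 CPM in the young-SP group.

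Other members of that route did not separate the groups. Ccr7, which marks migrating dendritic cells and T cells, measured 3.81 and 1.73 CPM against 2.13, 0.355 and 0.734 CPM. The young-SP replicate 1 lay above 1 aged-SP library, and the log2 fold change of 1.37 had a standard error of 0.76 and an edgeR adjusted p of 0.387. Ccl25, the third ligand of Ackr4, was level across the libraries at 5.68 and 4.86 CPM against 5.07, 5.44 and 5.14 CPM, with a log2 fold change of 0.02 (standard error 0.19). Ccl19 had at most 1 count in any library and did not pass the filter. Markers of lymphatic endothelium lay higher in the aged-SP group as well. All 4 of 4 had an unadjusted p under 0.05 and no overlap, where 19.0% and 38.8% of all genes tested did, with a summed level of 193 and 204 CPM against 86.7, 132 and 119 CPM. Lyve1, a hyaluronan receptor of lymphatic vessels, had a log2 fold change of 0.85 and an edgeR adjusted p of 0.0734. Their part in the Ccl21 difference was not tested, and in whole tissue fewer cells of a type cannot be told apart from less RNA per cell.

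Cx3cl1 and Cxcl16 are the transmembrane chemokines, which act as adhesion molecules on the cell surface and as attractants after they are cut off by Adam10 and Adam17. Both were higher in both aged-SP libraries. Cx3cl1, on chromosome 8 (94772009 to 94782427, plus strand), measured 39.1 and 31.0 CPM against 21.8, 13.9 and 15.8 CPM. Its means of 35.1 ± 5.72 (SD, n = 2) and 17.2 ± 4.10 CPM (SD, n = 3) gave a log2 fold change of 1.03 (standard error 0.23). The adjusted p was 0.114 by edgeR, 0.00395 by DESeq2 and 0.0338 by edgeR without the young-SP replicate 1. By edgeR it was 0.276 and 0.281 without the young-SP replicates 2 and 4. The receptor Cx3cr1, carried by monocytes and macrophages, showed no such separation at 23.6 and 26.5 CPM against 33.5, 18.7 and 26.7 CPM. Its log2 fold change was −0.07 with a standard error of 0.26.

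Cxcl16 measured 66.9 and 57.8 CPM against 36.2, 12.5 and 23.3 CPM, with means of 62.3 ± 6.48 (SD, n = 2) and 24.0 ± 11.9 CPM (SD, n = 3). The spread was wider among the young-SP libraries, and the log2 fold change of 1.38 had a standard error of 0.41. Its adjusted p was 0.177 by edgeR, 0.0185 by DESeq2 and 0.0461 by edgeR without the young-SP replicate 1. By edgeR it was 0.253 and 0.345 without the young-SP replicates 2 and 4. Cxcl16 overlaps Zmynd15 on the opposite strand, with 19% of its stretches of 50 bases in common, and Zmynd15 had means of 14.9 and 7.35 CPM and a log2 fold change of 1.02. The receptor Cxcr6, found on T cells and natural killer T cells, was lower at 7.07 and 2.30 CPM against 10.4, 13.8 and 8.28 CPM. That difference of −1.21 on the log2 scale had a standard error of 0.51 and an edgeR adjusted p of 0.283. The proteases Adam10 and Adam17 had log2 fold changes of −0.02 and −0.13.

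**Figure D3:**
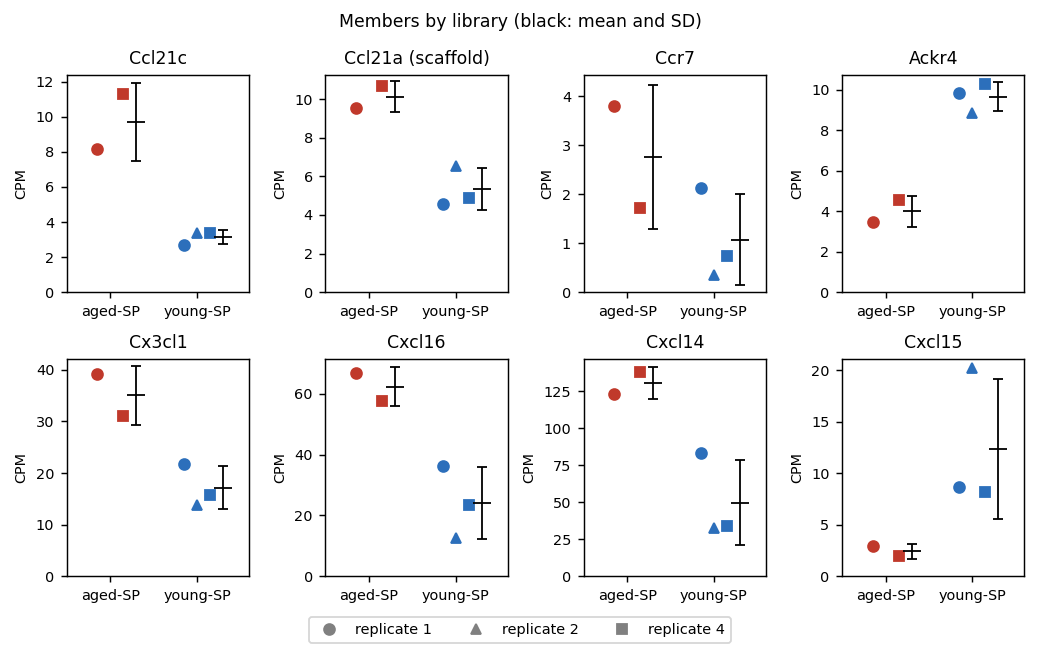
CPM in each library of 8 members (Ccl21c, Ccl21a on a scaffold, Ccr7, Ackr4, Cx3cl1, Cxcl16, Cxcl14 and Cxcl15), with the bar at the group mean and the error bar showing the SD of 2 aged-SP and 3 young-SP libraries. The groups do not overlap in 7 of the panels, the exception being Ccr7. The panels show selected members, so this count does not describe the members as a whole. Among all 50 tested members the groups did not overlap for 14, a share below the 38.8% of all genes tested.

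Cxcl14 and Cxcl12 are chemokines that resting tissue makes. Cxcl14 attracts monocytes, dendritic cells and natural killer cells, and its signalling receptor is not settled. It measured 123 and 138 CPM in the aged-SP libraries against 83.1, 32.3 and 33.8 CPM, so that the young-SP replicate 1 lay between the aged-SP libraries and the remaining young-SP ones. The log2 fold change was 1.39 (standard error 0.44), with an adjusted p of 0.191 by edgeR and 0.0187 by DESeq2. Leaving out the young-SP replicate 1 gave 1.97 and an edgeR adjusted p of 0.00784, the lowest among the members in that fit. Leaving out the young-SP replicates 2 and 4 gave 1.16 and 1.17, with edgeR adjusted p of 0.393 and 0.356.

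Cxcl12 was close to level at 382 and 421 CPM against 322, 390 and 382 CPM, with a log2 fold change of 0.14 (standard error 0.12). Its signalling receptor Cxcr4 measured 14 and 15.7 CPM against 11.1, 10.4 and 9.41 CPM without overlap, a log2 fold change of 0.53 (standard error 0.16) and an edgeR adjusted p of 0.174. Its scavenger Ackr3 measured 30.2 and 36.4 CPM against 41.8, 35.7 and 57.9 CPM, a log2 fold change of −0.44 (standard error 0.23). Of the 3 members of the Cxcl12 axis, the receptor alone had groups that did not overlap. Cxcl13, which draws B cells through Cxcr5, was near the lower limit at 0.605 and 0.640 CPM against 1.5, 1.71 and 0.935 CPM. The log2 fold change was −1.16 with a standard error of 0.41 and an edgeR adjusted p of 0.229, and Cxcr5 itself, with 2 and 2 counts against 9, 4 and 3, did not pass the filter.

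Cxcl15, also called lungkine, is a neutrophil attractant of mouse epithelia, and it had the most negative log2 fold change among the members. It measured 2.90 and 1.92 CPM in the aged-SP libraries against 8.69, 20.2 and 8.14 CPM in the young-SP libraries. The groups did not overlap, with means of 2.41 ± 0.695 (SD, n = 2) and 12.3 ± 6.78 CPM (SD, n = 3). The log2 fold change was −2.35 (standard error 0.53), with an adjusted p of 0.116 by edgeR and 2.54e-04 by DESeq2. With a library left out it ranged from −2.69 without the aged-SP replicate 1 to −1.81 without the young-SP replicate 2, its highest library.

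The other ELR CXC chemokines, which carry a glutamate-leucine-arginine motif and draw neutrophils through Cxcr2, were marked by replicate 1 of the aged-SP group or of both groups. Cxcl1 measured 14 and 0.640 CPM in the aged-SP libraries against 0.813, 0.0591 and 0.334 CPM. The aged-SP replicate 4 lay within the range of the young-SP libraries, and the log2 fold change of 4.20 had a standard error of 1.38 and an edgeR adjusted p of 0.202. Without the aged-SP replicate 1 the log2 fold change was 0.68. Cxcl5, named after its values were seen, measured 257 and 1.22 CPM against 12.9, 0.355 and 0.734 CPM. Its log2 fold change was 4.78 (standard error 2.07) with all libraries and −1.95 without the aged-SP replicate 1. Cxcl2, also named after its values were seen, was high in a library of each group, at 8.83 and 0.192 CPM against 10, 0.118 and 0 CPM. Cxcr2, the neutrophil receptor of this family, measured 7.25 and 0.959 CPM against 33.2, 5.02 and 2.2 CPM. It was highest in the young-SP replicate 1, which also had the highest sum of neutrophil markers, mostly S100a9, Csf3r and S100a8. Its log2 fold change of −1.71 (standard error 1.38) was 0.18 without that library.

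A further group of inflammatory chemokines was high in the aged-SP replicate 1 alone. The level in that library was more than 4 times that in each other library for 9 of the 50 members tested, against 80 of all genes tested (0.470%). The 9 were Ccl2, Ccl7, Ccl12, Ccl17, Ccl20, Cxcl1, Cxcl5, Cxcl10 and Cxcl11. The same count was 1 member, Cxcr2, for the young-SP replicate 1 (against 0.0764% of all genes) and 0 for each of the remaining 3 libraries. Ccl2, the main ligand of Ccr2 on monocytes, measured 42.9 and 2.24 CPM against 2.25, 1.83 and 2.54 CPM. Apart from the aged-SP replicate 1 all libraries lay close together, and the log2 fold change of 3.36 (standard error 1.08) was 0.02 without it. Ccl7, which also binds Ccr2, measured 12.9 and 2.49 CPM against 3, 1.36 and 1.74 CPM, and Ccl12, a further ligand of it, 16.2 and 0.959 CPM against 3.5, 1.36 and 2.34 CPM. They had log2 fold changes of 1.92 and 1.84 with all libraries, and of 0.29 and −1.32 without the aged-SP replicate 1.

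Ccl20, the ligand of Ccr6 on lymphocytes and dendritic cells, measured 24.7 and 0.192 CPM against 0.688, 0 and 0.0668 CPM. The aged-SP replicate 1 was 35.9 times the next library, and the log2 fold change of 5.63 (standard error 1.93, edgeR adjusted p 0.215) was −0.39 without it. Ccr6, with 6 and 8 counts against 6, 7 and 5, did not pass the filter. The interferon-induced ligands of Cxcr3 on T and natural killer cells divided among themselves. Cxcl10 measured 36.3 and 1.85 CPM against 6.82, 1.42 and 1.47 CPM. Cxcl11, annotated as a polymorphic pseudogene, measured 8.22 and 0.448 CPM against 0.625, 0.177 and 0.134 CPM. Exons of Cxcl10 and Cxcl11 overlap Art3 and Gm2673 on the opposite strand, and 3.85% and 40.9% of their stretches of 50 bases occur in other genes. Cxcl9 was high in a library of each group, at 14.9 and 2.11 CPM against 15.4, 3.01 and 6.01 CPM, with a log2 fold change of 0.07. Cxcr3 measured 2.36 and 3.07 CPM against 3.32, 4.26 and 4.34 CPM, a log2 fold change of −0.55 (standard error 0.26). Ccl17 and Ccl22, the ligands of Ccr4, measured 3.51 and 13.8 CPM in the aged-SP replicate 1 and at most 0.650 and 4.25 CPM elsewhere.

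The direction of the log2 fold change turned for 14 of 49 members (28.6%) when the aged-SP replicate 1 was left out, against 14.5% of all genes. Cytokines that are known to switch on chemokine genes were also high in that library. Il1a measured 8.58 and 1.41 CPM against 0.813, 0 and 0.601 CPM, and Tnf 8.22 and 1.53 CPM against 3.69, 1.12 and 1.27 CPM, both highest there. Il1b measured 37.8 and 1.92 CPM against 26.9, 3.67 and 2.94 CPM, high in replicate 1 of each group. Nfkbia, an inhibitor that NF-kappaB itself induces, measured 144 and 65.9 CPM against 83.0, 58.9 and 66.2 CPM. Their part in the chemokine values was not tested. The sum of neutrophil markers, at 105 CPM in the aged-SP replicate 1, was below the 220 CPM of the young-SP replicate 1. Mpo, Retnlg and Mmp8 ran the other way.

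Promoters are shown for 4 ligands that were high in replicate 1 of a group and held a motif match (Cxcl1, Cxcl2, Ccl20 and Cxcl10) and for a ligand and a receptor whose groups did not overlap (Cx3cl1 and Ackr4). Each is the 250 bases before the RefSeq start on GRCm38.p6, read 5′ to 3′ on the strand of the gene, and capitals mark matches on either strand to the NF-kappaB consensus, to the interferon-stimulated response element (GAAA, any 2 bases, then GAAA) or to the TATA box TATAAA. The coordinates are chr5:90890995-90891244 (plus) for Cxcl1, chr5:90903649-90903898 (plus) for Cxcl2, chr1:83116516-83116765 (plus) for Ccl20, chr5:92348890-92349139 (minus) for Cxcl10, chr8:94771930-94772179 (plus) for Cx3cl1 and chr9:104126644-104126893 (minus) for Ackr4.
Cxcl1: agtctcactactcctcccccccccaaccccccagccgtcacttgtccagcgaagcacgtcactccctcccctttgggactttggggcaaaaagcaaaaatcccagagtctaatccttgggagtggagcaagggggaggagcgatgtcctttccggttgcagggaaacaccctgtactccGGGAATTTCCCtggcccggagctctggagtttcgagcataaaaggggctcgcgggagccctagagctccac
Cxcl2: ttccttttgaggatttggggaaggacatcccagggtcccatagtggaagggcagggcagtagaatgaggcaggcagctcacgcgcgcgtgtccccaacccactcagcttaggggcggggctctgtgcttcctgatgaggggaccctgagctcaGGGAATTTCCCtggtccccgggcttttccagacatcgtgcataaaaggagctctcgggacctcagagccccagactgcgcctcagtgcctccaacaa
Ccl20: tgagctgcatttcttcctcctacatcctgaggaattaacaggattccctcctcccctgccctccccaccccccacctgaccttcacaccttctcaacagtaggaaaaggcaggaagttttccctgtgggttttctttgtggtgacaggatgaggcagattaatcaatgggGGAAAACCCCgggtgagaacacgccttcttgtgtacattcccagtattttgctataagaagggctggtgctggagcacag
Cxcl10: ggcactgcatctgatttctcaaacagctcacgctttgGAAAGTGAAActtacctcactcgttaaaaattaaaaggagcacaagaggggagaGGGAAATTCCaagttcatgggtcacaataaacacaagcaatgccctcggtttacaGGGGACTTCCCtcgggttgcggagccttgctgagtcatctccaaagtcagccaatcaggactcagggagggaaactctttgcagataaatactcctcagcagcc
Cx3cl1: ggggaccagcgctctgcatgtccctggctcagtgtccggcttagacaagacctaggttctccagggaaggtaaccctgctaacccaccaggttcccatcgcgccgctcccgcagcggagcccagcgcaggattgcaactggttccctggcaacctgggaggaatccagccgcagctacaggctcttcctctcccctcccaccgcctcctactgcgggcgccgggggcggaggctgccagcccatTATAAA
Ackr4: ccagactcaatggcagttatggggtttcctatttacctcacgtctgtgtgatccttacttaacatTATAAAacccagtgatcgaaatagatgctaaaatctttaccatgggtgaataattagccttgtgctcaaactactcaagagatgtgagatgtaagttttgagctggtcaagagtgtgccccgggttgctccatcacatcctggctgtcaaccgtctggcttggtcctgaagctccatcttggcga

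The NF-kappaB matches of Cxcl1 lay 71 to 61 bases before the start and those of Cxcl2 97 to 87 bases before it, each as a pair of overlapping matches. Ccl20 held 1 match 80 to 71 bases before the start. Cxcl10 held 3, at 159 to 150, 104 to 95 and 103 to 94 bases, of which the last pair overlap, together with a response element at 213 to 204 bases. In Cx3cl1 and Ackr4 the capitals are TATA box letters, at 6 to 1 and 185 to 180 bases. The RefSeq start need not be that of the counted gene. The Ackr4 stretch lies wholly inside the span of the counted gene, and those of Cx3cl1, Cxcl2 and Cxcl1 lie partly inside theirs. Promoters were matched for 44 of 60 member symbols, as 51 entries. The NF-kappaB consensus was in 11 of the 51 entries (21.6%) and in 7.25% of all 32851 promoters of the table, the response element in 3 (5.88%) and in 2.98%, and the TATA box in 14 (27.5%) and in 12.4%. Of the 9 members that stood out in the aged-SP replicate 1, 5 had an entry and 3 of these held an NF-kappaB match, while Ccl12 and Ccl17 did not. Ccl28 and Cxcr2, which also spread widely between libraries, had an entry without a match. The tested members Ackr2, Ccl9, Ccr1, Ccr3 and Cxcl2 held a match and were not among the 9. A link between matches and values was not tested. These matches describe letters and not bound sites.

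Ccl28 and Cxcl17 are chemokines of mucosal surfaces, Ccl28 drawing cells that make IgA through Ccr10. Both separated the young-SP replicate 1 from the other young-SP libraries. Ccl28, named after its values were seen, measured 272 and 80.3 CPM in the aged-SP libraries against 247, 7.63 and 10.1 CPM, with a log2 fold change of 0.99 and a standard error of 1.53. The young-SP replicate 1 lay with the aged-SP libraries, and without it the log2 fold change was 4.30 and the edgeR adjusted p 0.0359. Cxcl17 measured 52.4 and 53.1 CPM against 57.1, 12.8 and 22.4 CPM, with a log2 fold change of 0.78, and of 1.57 without that library (edgeR adjusted p 0.0468). For Ccr10 the log2 fold change was −0.48, with a standard error of 0.32.

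The same library set apart the values of several CC ligands. Ccl5, made by T and natural killer cells, measured 8.52 and 8.19 CPM against 9.95, 2.66 and 2.74 CPM. Ccl9, a ligand of Ccr1, measured 17.8 and 15.3 CPM against 14.1, 7.86 and 8.14 CPM. Their log2 fold changes of 0.71 and 0.73 were 1.62 and 1.04 without the young-SP replicate 1, with edgeR adjusted p of 0.0298 and 0.0450. In that fit 8 of 47 members tested were called, all higher in the aged-SP group, against 3.45% of all genes called and 1.74% called as higher. The 8 were Ccl5, Ccl9, Ccl21c, Ccl28, Cx3cl1, Cxcl14, Cxcl16 and Cxcl17. No member was called without the young-SP replicate 2 or without the young-SP replicate 4. Of the 5 gland markers, Prss28 and Prss29 were higher in the young-SP replicate 1 than in the other young-SP libraries, though below both aged-SP libraries, with 1446 and 764 CPM against 90.7, 0.355 and 0.267 CPM for Prss28 and 2458 and 2137 CPM against 385, 2.96 and 11.5 CPM for Prss29. Foxa2, Spink1 and Lif did not set the young-SP replicate 1 apart in this way. The part of the gland markers in the Ccl28 values was not tested.

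**Figure D4:**
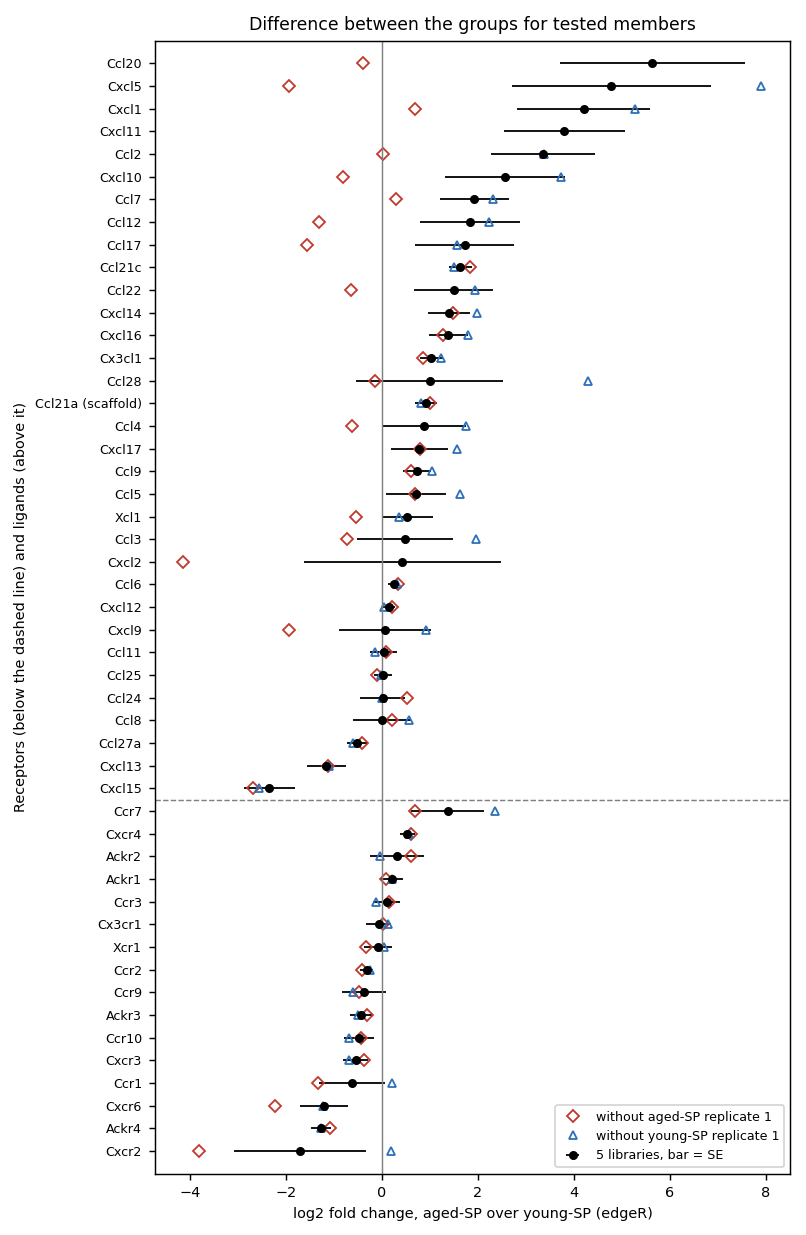
Log2 fold change of aged-SP over young-SP for 49 of the 50 tested members, with bars of 1 standard error from all 5 libraries, diamonds for the fit without the aged-SP replicate 1 and triangles for the fit without the young-SP replicate 1. Ccl20, Cxcl5 and Cxcl1 move from 5.63, 4.78 and 4.20 to −0.39, −1.95 and 0.68 without the aged-SP replicate 1, whereas Ccl21c stays at 1.84.

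Ccr2, the main receptor of monocytes, measured 80.8 and 70.6 CPM against 105, 92.7 and 86.0 CPM without overlap, the log2 fold change being −0.32 ± 0.13 (standard error) and the edgeR adjusted p 0.255. Ccr1, which binds several inflammatory CC ligands, measured 13.3 and 5.95 CPM against 28.3, 8.10 and 8.48 CPM. The young-SP replicate 1 was its highest library. Ccl6 and Ccl8, which are abundant in macrophages, had log2 fold changes of 0.24 and 0.00, with Ccl6 at 62.6 and 71.3 CPM against 62.8, 53.4 and 53.3 CPM and Ccl8 at 19.8 and 26.8 CPM against 38.5, 8.04 and 23.3 CPM. Ccl3 and Ccl4, the macrophage inflammatory proteins, had 0.47 and 0.87 with standard errors of 1.0 and 0.88. Ccr3 of eosinophils and its ligands Ccl11 and Ccl24, the eotaxins, had 0.10, 0.03 and 0.01, with no separation of the groups. Ccr3 measured 9.91 and 10.5 CPM against 6.44, 10.2 and 11.8 CPM. Xcl1 and Xcr1, through which lymphocytes reach cross-presenting dendritic cells, had 0.53 and −0.09. The atypical receptors Ackr1, which carries chemokines across vessel walls, and Ackr2, a scavenger of inflammatory CC ligands, had log2 fold changes of 0.20 and 0.31, so that Ackr4, at −1.27, had the largest difference in size among the 4. Ackr1 measured 3.57 and 3.07 CPM against 3, 3.13 and 2.54 CPM, and Ackr2 1.99 and 3.2 CPM against 1.0, 1.83 and 3.47 CPM. Macrophage markers summed to 1093 and 1877 CPM against 1676, 868 and 1221 CPM, and markers of T and natural killer cells to 41.1 and 36.8 CPM against 49.6, 43.6 and 70.2 CPM.

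The 12 members that did not pass the filter were the ligands Ccl1, Ccl19, Ccl21a on chromosome 4, Ccl26, Ccl27a on a scaffold, Ccl27b and Cxcl3, and the receptors Ccr4, Ccr6, Ccr8, Cxcr1 and Cxcr5. None had more than 15 counts in any library. That highest count was Cxcl3, a ligand of Cxcr2, at 15 and 0 counts in the aged-SP group against 2, 0 and 0. Of the Ccl27b transcript, 98.1% of the stretches of 50 bases also occurred in other genes, Ccl27a among them. Shared stretches were not computed for the Ccl27a row on a scaffold. The sum of the 3 Ccl27 rows was 5.68 and 6.91 CPM against 7.57, 7.80 and 10.7 CPM.

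Genes of the pathway that lie outside the name rule were described from fixed lists, and none was called by edgeR. Among 36 tested genes of chemokine receptor signalling, 4 had an unadjusted p under 0.05 with higher values and 2 with lower values in the aged-SP group, and the median log2 fold change was −0.06. The shares of all genes tested were 9.62% higher and 9.36% lower, which also apply to the lists that follow. Among 16 tested inducers of chemokine transcription, 5 were higher and 1 lower by the same measure, with a median of 0.55. Relb, an NF-kappaB subunit, measured 25.5 and 16.5 CPM against 11.4, 11.1 and 13.4 CPM (log2 fold change 0.81, edgeR adjusted p 0.154). Among 13 tested genes that cleave or bind chemokines, 2 were higher and none lower, with a median of 0.10. Dpp4, a protease that trims the ends of many chemokines, measured 134 and 92.6 CPM against 70.0, 70.1 and 64.2 CPM (log2 fold change 0.74, edgeR adjusted p 0.120). Among 8 tested relatives of the chemokine system, Cmklr1, the chemerin receptor of macrophages and dendritic cells, measured 42.1 and 39.1 CPM against 21.9, 14.7 and 17.6 CPM. It did not overlap between groups, with a log2 fold change of 1.17 (standard error 0.19) and an edgeR adjusted p of 0.0760.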

How the data were processed

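RNA-seq was carried out on 5 whole uterus libraries, 2 aged-SP and 3 young-SP. Library preparation did not keep strand. Per the study's methods, reads were filtered and aligned with HISAT2 2.1.0, and the submitters' processing notes also name Bowtie2 2.2.3 and HTSeq 0.6.0. The methods give collection at 3.0 days post coitum, whereas the labels give 3.5 days after caging. The authors deposited raw counts per gene, and FPKM values per library, which were used to compare levels between genes. The deposited table also holds the authors' own fold changes and p-values, which were not used. Gene positions matched GRCm38 (GENCODE M21) for 61 of the 62 members. A young-SP sample that the study set aside was not analysed here.

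Counts were filtered with filterByExpr and normalized by TMM, and 17013 genes were tested with the quasi-likelihood F-test of edgeR 4.0.16 (R 4.3.3), aged-SP against young-SP, with Benjamini-Hochberg adjustment over all of them. A call needed an adjusted p under 0.05 and a log2 fold change above 1 in size, as in the study's methods. Standard errors are those implied by the F statistic. The biological coefficient of variation was 25.1%, with 3 residual degrees of freedom. Precision rests on 2 and 3 libraries and, for members with few counts, on counting error. Alternatives were DESeq2 1.42.0, limma-voom (limma 3.58.1), other scalings, filters and quasi-likelihood settings, a call on adjusted p alone, a replicate block and each library left out.

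Members and lists were chosen with earlier results of these data known. Named by rule were the 15 members with an unadjusted p under 0.05, the 4 measured by quantitative PCR in the study, the 5 ligands and 5 receptors with the highest mean FPKM, and the receptors or ligands of the first 2 sets, 36 members in all. Ccl5, Ccl9, Ccl17, Ccl22, Ccl28, Cxcl2, Cxcl3, Cxcl5, Cxcl9 and Cxcl10 fall outside this rule and were named after their values were seen. The same holds for Ccl3, Ccl4, Ccl11, Ccl24, Ccl27a, Ccr10, Xcl1 and Xcr1. Ccl21a and Ccl27a each have a second row on an unplaced scaffold. Promoters were taken from RefSeq (GRCm38.p6). 1 member is counted among the totals and not reported here by name.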

Additional observations from a re-analysis of the deposited data

How the results depend on the processing

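The count of members called was 0 with edgeR, 8 with DESeq2, 1 without a filter on low counts and between 0 and 8 when a library was left out. The 8 came without the young-SP replicate 1, and the 1 without the aged-SP replicate 4 was Ccl2. Over all genes tested the 25 calls became 632 with DESeq2, 203 without a filter and between 1 and 578 with a library left out. The 15 members with an unadjusted p under 0.05 became 7 to 20 with a library left out, when 12% to 22.7% of all genes met that rule. They were 8 without the aged-SP replicate 1 and 7 and 9 without the young-SP replicates 4 and 2. The 14 members without overlap became 15 under both other scalings. No scaling moved the median log2 fold change of all genes by 0.05 or more.

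Of 426 alternative values for 31 named members that were tested, 391 kept their direction and their side of the threshold, 15 passed the threshold that the main value missed, and 20 changed direction. Ccl8, at 0.00, changed sign within rounding (0.00) with DESeq2, its size factors, library size alone or no filter, and was −0.38 with the replicate block. With a library left out the log2 fold change ranged from −0.39 to 6.62 for Ccl20, −0.41 to 0.56 for Ccl8, −0.27 to 0.13 for Cx3cr1, −0.10 to 0.12 for Ccl25, −1.33 to 0.21 for Ccr1, −3.81 to 0.18 for Cxcr2, −1.32 to 2.76 for Ccl12, −0.12 to 0.28 for Ccr3 and −0.07 to 0.86 for Ackr2. The cause was not tested. A fit with 1 aged-SP library assumes that it varies like the young-SP libraries, and genes that miss the filter in such a fit have no value there.

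The groups share replicate numbers 1 and 4, and no label says that a number marks a shared animal, day or batch. The deviations of same-numbered libraries from their group means correlated at 0.15 and 0.13, and those of unlike numbers at −0.15 to 0.08. The deviations of the 2 aged-SP libraries mirror each other, so these values cannot decide whether the numbers mark pairs. With the replicate block 2 genes and 0 members were called, and 16 members had an unadjusted p under 0.05, as had 14.8% of all genes.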

Other observations

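Members that lie side by side in the genome did not share 1 pattern. On chromosome 11 (82035571 to 82305690, GRCm38) the cluster Ccl2, Ccl7, Ccl11, Ccl12, Ccl8 and Ccl1 held 3 members that were more than 4 times higher in the aged-SP replicate 1 than in each other library, whereas Ccl11 and Ccl8 of the same cluster had log2 fold changes of 0.03 and 0.00. In the next cluster of that chromosome (83525778 to 83664683) Ccl5, Ccl9, Ccl6, Ccl3 and Ccl4 held none of that kind, with log2 fold changes of 0.24 to 0.87. On chromosome 5 (90759360 to 90905938) Cxcl15, with −2.35, lies between Cxcl5 and Cxcl1, with 4.78 and 4.20. On chromosome 8 (94745590 to 94812036) Cx3cl1, whose groups did not overlap, lies between Ccl22 and Ccl17, whose highest values came from the aged-SP replicate 1. The 7 receptor genes on chromosome 9 (123678439 to 124147699) had log2 fold changes between −1.21 and 0.10. None of these differences between neighbours was tested.

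Markers of mast cells other than Kit spread widely within the aged-SP group. The summed level of the 5 markers was 74.1 and 204 CPM against 42.3, 77.0 and 107 CPM, with Cma1, a mast cell chymase, at 15.4 and 56.5 CPM against 7.69, 14 and 23.8 CPM. The aged-SP replicate 4 was the highest library for these markers, while the aged-SP replicate 1 was the highest for 9 inflammatory chemokines.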
